A study of Homo sapiens with 8 samples.

Results

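The comparison described here asks what L-ascorbic acid (LAA, vitamin C) changed in the transcriptome of U-937 cells that were already receiving all-trans retinoic acid (ATRA). U-937 is an established human pro-monocytic leukaemia line. Cells were treated for 72 h, and RNA-seq libraries were made from poly-A-enriched RNA. The study held 8 libraries, 2 per group, and the comparison was between 4 of them, the 2 libraries that received 250 µM LAA with 1 µM ATRA (LAA+ATRA) and the 2 that received 1 µM ATRA alone. The remaining libraries were 2 from cells given 250 µM LAA alone and 2 from cells given the vehicles PBS and DMSO, in which LAA and ATRA respectively were dissolved. All cells were of the same single line grown in culture, and the labels do not say what solvent control the single-compound groups received. The members were all genes that passed a filter on low counts, 14995 of the 61125 genes in the count table, and no measured difference was used to choose them. Nothing in the labels says that replicates are separate cultures, and the p-values therefore reflect the spread of these libraries alone, a spread that could be technical.

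ATRA is the ligand of the retinoic acid receptors, nuclear receptors that bind DNA with RXR partners and turn on genes when ligand replaces corepressors with coactivators. In myeloid leukaemia cells it drives maturation towards monocytes and granulocytes, with gain of integrins, phagocytic receptors and the oxidative burst. Ascorbate is an antioxidant and a cofactor that keeps iron reduced in 2-oxoglutarate-dependent dioxygenases, among them the TET enzymes, which oxidise methylated cytosine in DNA, the collagen and HIF prolyl hydroxylases and many histone demethylases. The title of the series names TET2, so the density of CG dinucleotides, the sites of DNA methylation, is shown for a few promoters.

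Promoter sequences of called genes were picked to show the contrast between promoters rich and poor in CG. They are the 250 bases before the first listed transcription start in RefSeq on GRCh38.p14. Each is written 5′ to 3′ on the strand of the gene, and capitals mark CG dinucleotides. The median over all matched promoters was 24 CG for genes called higher and 17 CG for genes called lower, a smaller contrast than in those shown. CR1 (chr1:207495907-207496156, plus strand, 12 CG), CCR1 (chr3:46208314-46208563, minus strand, 2 CG) and TLR4 (chr9:117704153-117704402, plus strand, 5 CG) belong to genes that were lower with LAA+ATRA than with ATRA. CEBPB (chr20:50190333-50190582, plus strand, 25 CG, the first of 2 listed starts) and MBD3 (chr19:1592866-1593115, minus strand, 32 CG) belong to genes that were higher.
CR1: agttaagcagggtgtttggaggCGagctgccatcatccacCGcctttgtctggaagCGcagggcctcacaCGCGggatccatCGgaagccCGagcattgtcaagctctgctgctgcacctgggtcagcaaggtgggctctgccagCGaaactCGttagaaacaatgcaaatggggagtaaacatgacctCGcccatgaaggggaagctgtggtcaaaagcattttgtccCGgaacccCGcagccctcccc
CCR1: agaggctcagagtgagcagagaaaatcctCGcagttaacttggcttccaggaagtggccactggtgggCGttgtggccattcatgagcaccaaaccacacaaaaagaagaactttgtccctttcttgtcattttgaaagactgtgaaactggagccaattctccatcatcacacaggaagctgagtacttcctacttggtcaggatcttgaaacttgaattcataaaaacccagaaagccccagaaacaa
TLR4: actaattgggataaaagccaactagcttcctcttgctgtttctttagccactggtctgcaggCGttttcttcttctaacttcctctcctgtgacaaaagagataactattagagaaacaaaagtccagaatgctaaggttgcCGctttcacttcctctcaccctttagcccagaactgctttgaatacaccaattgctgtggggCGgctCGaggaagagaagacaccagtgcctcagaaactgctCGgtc
CEBPB: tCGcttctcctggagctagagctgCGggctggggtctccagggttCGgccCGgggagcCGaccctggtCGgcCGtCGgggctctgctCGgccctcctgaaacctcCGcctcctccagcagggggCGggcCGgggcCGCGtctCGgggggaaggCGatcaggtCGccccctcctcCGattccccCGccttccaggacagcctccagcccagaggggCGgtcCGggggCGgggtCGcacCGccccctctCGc
MBD3: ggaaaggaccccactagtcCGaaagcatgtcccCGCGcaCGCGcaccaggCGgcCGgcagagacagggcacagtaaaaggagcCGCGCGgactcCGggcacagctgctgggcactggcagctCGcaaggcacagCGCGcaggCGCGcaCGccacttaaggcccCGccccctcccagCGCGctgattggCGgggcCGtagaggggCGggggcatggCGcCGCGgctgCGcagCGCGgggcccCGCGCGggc

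Few genes were called when LAA was added to ATRA, and most of the called changes were under 2-fold. Genes that encode surface receptors of myeloid cells, including the complement receptor CR1, the chemokine receptor CCR1, the integrin chains ITGB2 and ITGB1 and the LPS receptor TLR4, were lower. Genes that were higher included LBP, GAL, the transcription factor CEBPB and 6 transcripts of the mitochondrial genome. In the edgeR quasi-likelihood test with Benjamini-Hochberg adjustment, 152 of 14995 genes were called at an adjusted p under 0.05, which is 1.01% of the genes tested. Of these, 74 genes (0.493%) were higher and 78 genes (0.52%) were lower with LAA+ATRA. Only 18 of the 152 changed at least 2-fold, 16 higher and 2 lower, and the median absolute log2 fold change of called genes was 0.64. An unadjusted p under 0.05 was reached by 2782 genes (18.55%), 1373 higher and 1409 lower. In all 152 called genes the 2 groups did not overlap, and the same held for 44.1% of all genes tested.

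**Figure D1:**
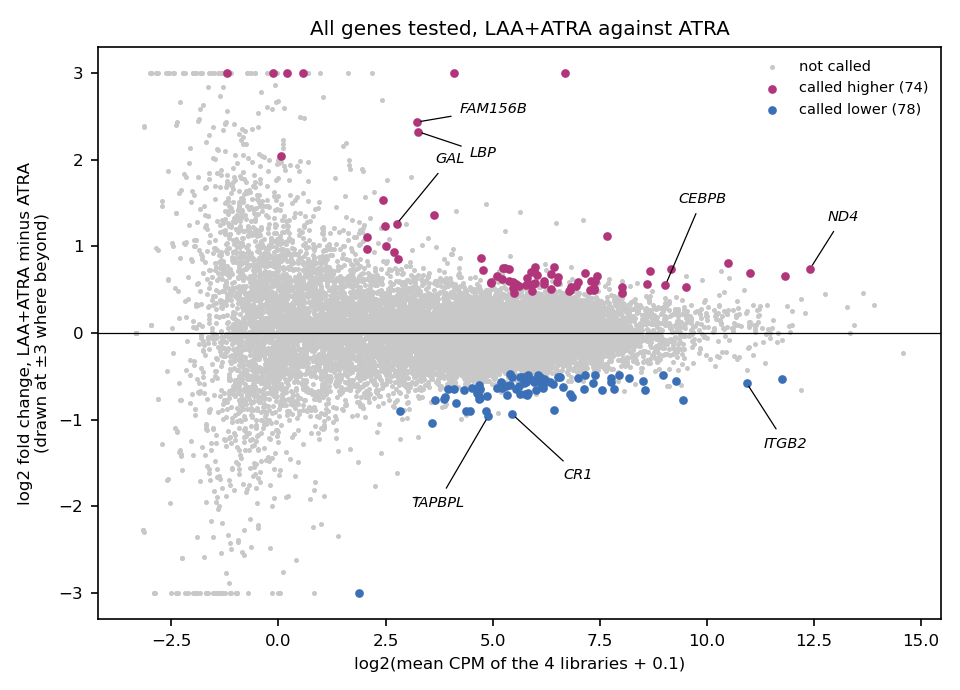
Log2 fold change of LAA+ATRA against ATRA (vertical axis, drawn at 3 or -3 where beyond) against log2 of the mean normalised read count of the 4 libraries in CPM (counts scaled to the TMM-adjusted library total) plus 0.1 (horizontal axis), 1 point per gene tested. The 74 called higher and 78 called lower genes lie mostly between the log2 fold changes of ITGB2 (-0.58) and CEBPB (0.55) and those of TAPBPL (-0.96) and GAL (1.26), while LBP stands at 2.32.

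All 8 libraries shared 1 estimate of spread, and the number of calls moved when 1 library was left out, also for libraries outside the comparison. The 2 groups did not overlap in any of the 152 called genes, so leaving out 1 library could hardly reverse a direction. Why the number of calls moved was not tested. The number was 27 without vehicle replicate 1, 28 without vehicle replicate 2, 6 without LAA replicate 1, 6 without LAA replicate 2 and 47 without LAA+ATRA replicate 1. It was 145 without ATRA replicate 1, 172 without ATRA replicate 2 and 117 without LAA+ATRA replicate 2, and in this last fit 100 of the calls were higher and 17 lower. In each of these 8 fits all 152 genes kept their direction, and 5 genes were called in all 8: LBP, GAL, CR1, TAPBPL and EIF3CL. Another 32 of the 152 were called in none of the 8, among them BATF3, MERTK, LAMC1, HBEGF, IL16 and GDF1, which are described below.

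LBP, which encodes the LPS-binding protein that carries bacterial lipopolysaccharide to its receptor complex, had the largest rise among called genes with a symbol and at least 5 CPM, after EIF3CL, LOC105369760 and FAM156B, whose reads may be shared with other genes. Its normalised read count was 3.1 and 3.19 CPM in the ATRA libraries and 14.6 and 16.9 CPM in the LAA+ATRA libraries. It was 0.0481 and 0.097 CPM in vehicle and 0.149 and 0.263 CPM with LAA alone. The 2 LAA+ATRA libraries were the highest of the 8 and did not overlap the ATRA libraries, and LBP was close to absent from both groups without ATRA. The rise was 5.01-fold (log2 fold change 2.32 ± 0.23, standard error (SE), adjusted p = 0.00252). LBP lies on chromosome 20 from 38346356 to 38377023 on the plus strand (GRCh38, GENCODE 29).

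GAL, which encodes the neuropeptide galanin, was lower in the libraries with ATRA than in those without it, where LBP was higher. It was at 52.1 and 56 CPM in vehicle and 56.2 and 60.2 CPM with LAA alone, but at 3.26 and 4.53 CPM with ATRA. With LAA+ATRA it was at 9.06 and 9.81 CPM, above both ATRA libraries and far below all libraries without ATRA. The rise over ATRA was 2.39-fold (1.26 ± 0.16, adjusted p = 0.0179). Of 11 neuropeptide and hormone genes tested, GAL was the 1 that was called, beside 1.01% of all genes tested. The gene lies on chromosome 11 from 68683779 to 68691175 on the plus strand.

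**Figure D2:**
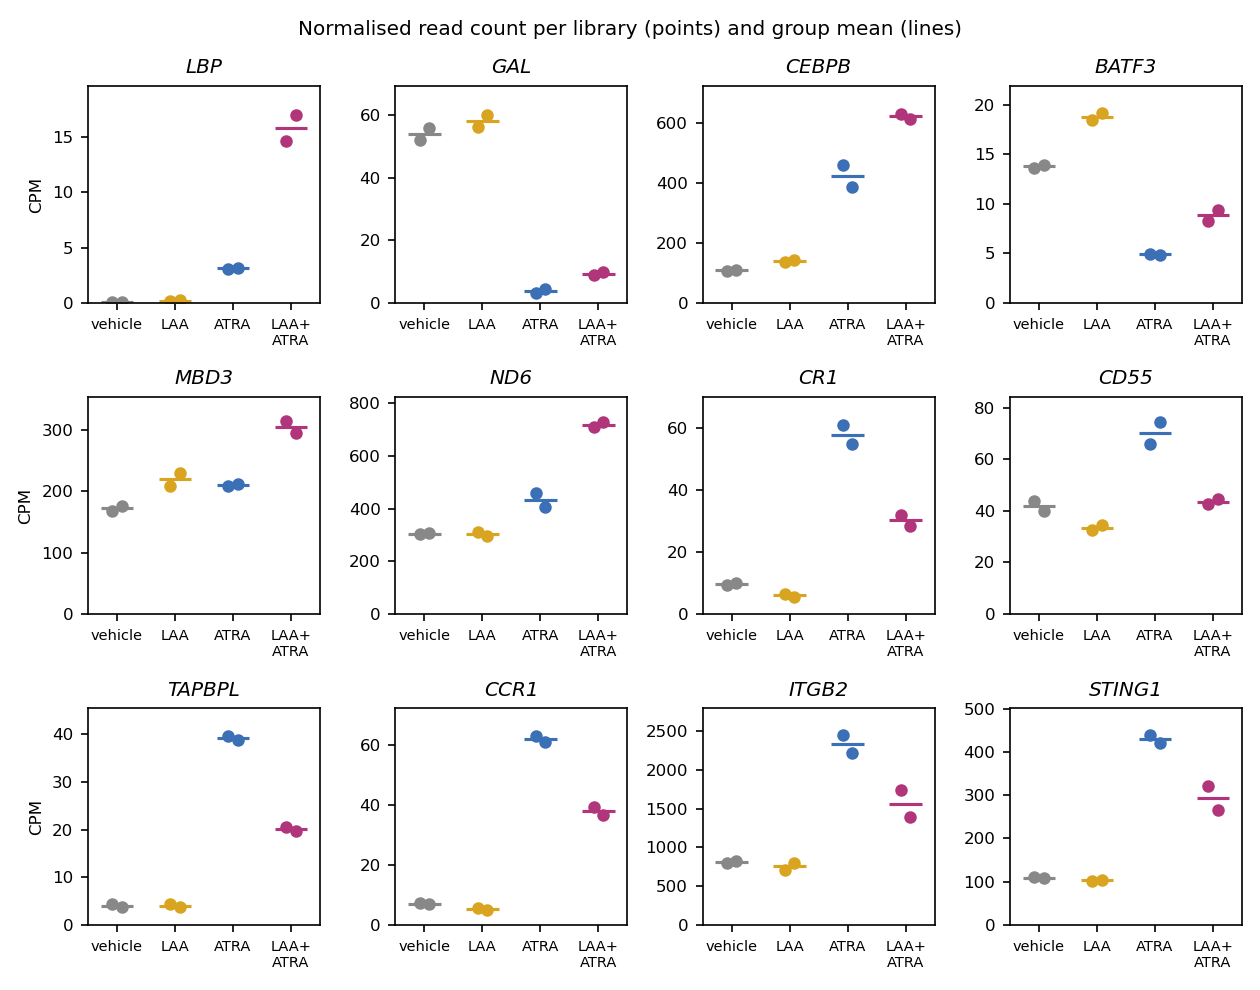
Normalised read count in CPM (vertical axes from 0) of 12 called genes in each library (points) with the group mean (line), for vehicle, LAA, ATRA and LAA+ATRA. In each panel the 2 LAA+ATRA libraries lie wholly above (LBP, GAL, CEBPB, BATF3, MBD3, ND6) or wholly below (CR1, CD55, TAPBPL, CCR1, ITGB2, STING1) the 2 ATRA libraries.

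The called receptors for complement, antibody and LPS were lower with LAA+ATRA. CR1, the receptor for complement fragments C3b and C4b, was at 60.8 and 54.6 CPM with ATRA and at 32 and 28.2 CPM with LAA+ATRA. It was at 9.43 and 9.9 CPM in vehicle and at 6.55 and 5.62 CPM with LAA alone, so the LAA+ATRA libraries lay between the ATRA libraries and those without ATRA. The fall was 1.92-fold (log2 fold change -0.94 ± 0.12, adjusted p = 0.0179), and it was -0.94 (adjusted p = 0.0204) with the counts of the similar gene CR1L added. CR1 lies on chromosome 1 from 207496147 to 207641765 on the plus strand. In bulk RNA, fewer cells that express a gene and less of its RNA per cell cannot be told apart.

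CD55, the decay-accelerating factor that protects cells from complement, went from 66 and 74.4 CPM with ATRA to 42.6 and 44.5 CPM with LAA+ATRA (-0.69 ± 0.11, adjusted p = 0.0203). These values overlapped the vehicle libraries, at 43.7 and 40 CPM. TLR4, the signalling receptor for LPS, went from 86.4 and 86.9 CPM to 59.2 and 60.9 CPM (-0.53 ± 0.092, adjusted p = 0.0337), and on log2(FPKM + 0.1) its estimate was -0.96. FCAR, the Fc receptor for immunoglobulin A, went from 24.6 and 20.6 CPM to 11.7 and 13.9 CPM (-0.81 ± 0.16, adjusted p = 0.0435). Its LAA+ATRA libraries stood beside the 10.6 and 10.9 CPM of vehicle. The LAA+ATRA and ATRA libraries did not overlap for any of these 3 genes. The same held for all called genes and for 44.1% of all genes tested.

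Of the 31 genes in the list of complement, Fc and LPS receptors that were tested, out of 40 listed, 5 were called lower and 1, LBP, was called higher. Among those called lower was ITGB2, described with the integrins. Across all genes tested, 0.52% were called lower and 0.493% higher. The estimate was below 0 for 28 of the 31 and for 7414 of all 14995 genes tested. The median log2 fold change of the 31 was -0.42, beside 0.0035 for all genes tested. With LAA alone the median of the same 31 genes was 0.02. CD14, the LPS co-receptor, held only 18 counts in the 8 libraries together and failed the filter. The median stayed below 0 in all 18 alternative analyses, between -0.48 and -0.27. CD46 (-0.43 ± 0.1, adjusted p = 0.0624) and C3AR1 (-0.99 ± 0.22, adjusted p = 0.0558), a complement regulator and a receptor for C3a both chosen with their values known, did not pass the test.

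Called genes of adhesion and migration were lower as well. ITGB2, the beta chain shared by the leukocyte integrins, was among the most abundant called genes, at 2453 and 2210 CPM with ATRA and 1743 and 1387 CPM with LAA+ATRA. Vehicle had 793 and 819 CPM, so both LAA+ATRA libraries stayed above vehicle while lying below both ATRA libraries (-0.58 ± 0.12, adjusted p = 0.0491). ITGB1, the beta chain of the receptors for fibronectin, collagen and laminin, went from 247 and 274 CPM to 174 and 176 CPM, below the 209 and 182 CPM of vehicle (-0.57 ± 0.1, adjusted p = 0.0338). ITGA6, a laminin-binding alpha chain that pairs with ITGB1, went from 739 and 747 CPM to 465 and 551 CPM (-0.55 ± 0.11, adjusted p = 0.0428). LAMC1, which encodes a laminin chain, went from 68.4 and 64.4 CPM to 47.9 and 47 CPM (-0.49 ± 0.1, adjusted p = 0.0466). CCR1, a receptor for inflammatory chemokines, was at 63 and 61 CPM with ATRA, 39.4 and 36.7 CPM with LAA+ATRA and 7.32 and 6.94 CPM in vehicle (-0.71 ± 0.11, adjusted p = 0.0203).

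Of 32 adhesion and migration receptors tested, 4 were called lower, none was called higher, and 27 estimates were below 0, with a median of -0.32. The median was between -0.39 and -0.20 over the 18 alternatives. For comparison, 0.52% of all 14995 genes tested were called lower and 7414 had estimates below 0. ITGAM, the CD11b chain that marks mature myeloid cells, was at 154 and 122 CPM with ATRA and 115 and 99 CPM with LAA+ATRA, and did not pass the test (-0.36 ± 0.13, adjusted p = 0.166). Its estimate was -0.19 without ATRA replicate 1. PTPRC, the pan-leukocyte phosphatase CD45, went from 171 and 173 CPM to 113 and 107 CPM (-0.65 ± 0.096, adjusted p = 0.0194). Its LAA+ATRA libraries lay below the 129 and 119 CPM of vehicle as well, and 88.6 and 94.2 CPM were found with LAA alone.

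TAPBPL, a tapasin-like editor of the peptides loaded on MHC class I, was at 39.6 and 38.8 CPM with ATRA and 20.5 and 19.8 CPM with LAA+ATRA. The 4 libraries without ATRA lay between 3.68 and 4.43 CPM, so the pair of LAA+ATRA libraries stood apart, below the ATRA libraries and above the rest. The fall was 1.95-fold (log2 fold change -0.96 ± 0.13, adjusted p = 0.0194). TAPBPL lies on chromosome 12 from 6451690 to 6466517 on the plus strand. ERAP1, the endoplasmic reticulum peptidase that trims such peptides, went from 41.5 and 49 CPM to 28.1 and 30.2 CPM (-0.64 ± 0.11, adjusted p = 0.0337). Of 28 antigen presentation genes tested these 2 were called, both lower, and 20 estimates were below 0 with a median of -0.18. All 14995 genes tested held 0.52% called lower and 7414 estimates below 0.

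Among signalling genes, STING1, the adaptor for cytosolic DNA sensing, went from 439 and 421 CPM to 321 and 266 CPM (-0.55 ± 0.1, adjusted p = 0.0417), against 110 and 109 CPM in vehicle. NLRC3, which encodes a NOD-like receptor family protein, went from 19.2 and 17.4 CPM to 11.6 and 10.1 CPM (-0.76 ± 0.13, adjusted p = 0.0337). MERTK, the receptor tyrosine kinase by which macrophages take up dying cells, went from 73 and 75.7 CPM to 48.5 and 51.9 CPM (-0.57 ± 0.11, adjusted p = 0.0428). Its ligand protein S is encoded by PROS1, which went from 29.4 and 35 CPM to 19.7 and 18.3 CPM (-0.76 ± 0.14, adjusted p = 0.0337). Receptor and ligand were therefore lower together. The groups overlapped in neither, as in all called genes and 44.1% of all genes tested. HBEGF, an EGF receptor ligand, went from 30 and 27.9 CPM to 16.3 and 14.6 CPM (-0.90 ± 0.19, adjusted p = 0.0486). The cytokine genes TNFSF13B, which encodes the B-cell survival factor BAFF (-0.74 ± 0.16, adjusted p = 0.0491), and IL16, a CD4 ligand (-0.51 ± 0.11, adjusted p = 0.0486), were the 2 of 24 cytokines and chemokines that were called, both lower. The share called lower among all genes tested was 0.52%. For TNFSF13B, ATRA replicate 2 held 174 CPM and replicate 1 116 CPM, and without replicate 2 the log2 fold change was -0.42. On log2(FPKM + 1) the estimates for MERTK and IL16 were -0.32 and -0.30.

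Other genes with the smallest adjusted p among those called lower encode enzymes of the secretory pathway. B4GALT5, a galactosyltransferase of glycolipid synthesis, went from 902 and 865 CPM with ATRA to 484 and 547 CPM with LAA+ATRA (-0.78 ± 0.11, adjusted p = 0.0194), against 128 and 110 CPM in vehicle. CPD, a carboxypeptidase of the Golgi, went from 456 and 458 CPM to 279 and 302 CPM (-0.65 ± 0.097, adjusted p = 0.0194). PLEK, the protein kinase C substrate pleckstrin of blood cells, was the most abundant gene called lower, at 3856 and 4306 CPM with ATRA and 2944 and 2709 CPM with LAA+ATRA (-0.53 ± 0.098, adjusted p = 0.0371). The lysosomal peptidase gene TPP1 (-0.48 ± 0.098, adjusted p = 0.0466) and the sterol synthesis gene SQLE, which encodes squalene epoxidase (-0.48 ± 0.1, adjusted p = 0.0486), were also called lower. The largest fall among called genes with a symbol was that of CRYBG3, from 17.5 and 14.7 CPM to 6.99 and 8.65 CPM (-1.04 ± 0.18, adjusted p = 0.0333, and -0.54 with limma on log2(FPKM + 1)).

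**Figure D3:**
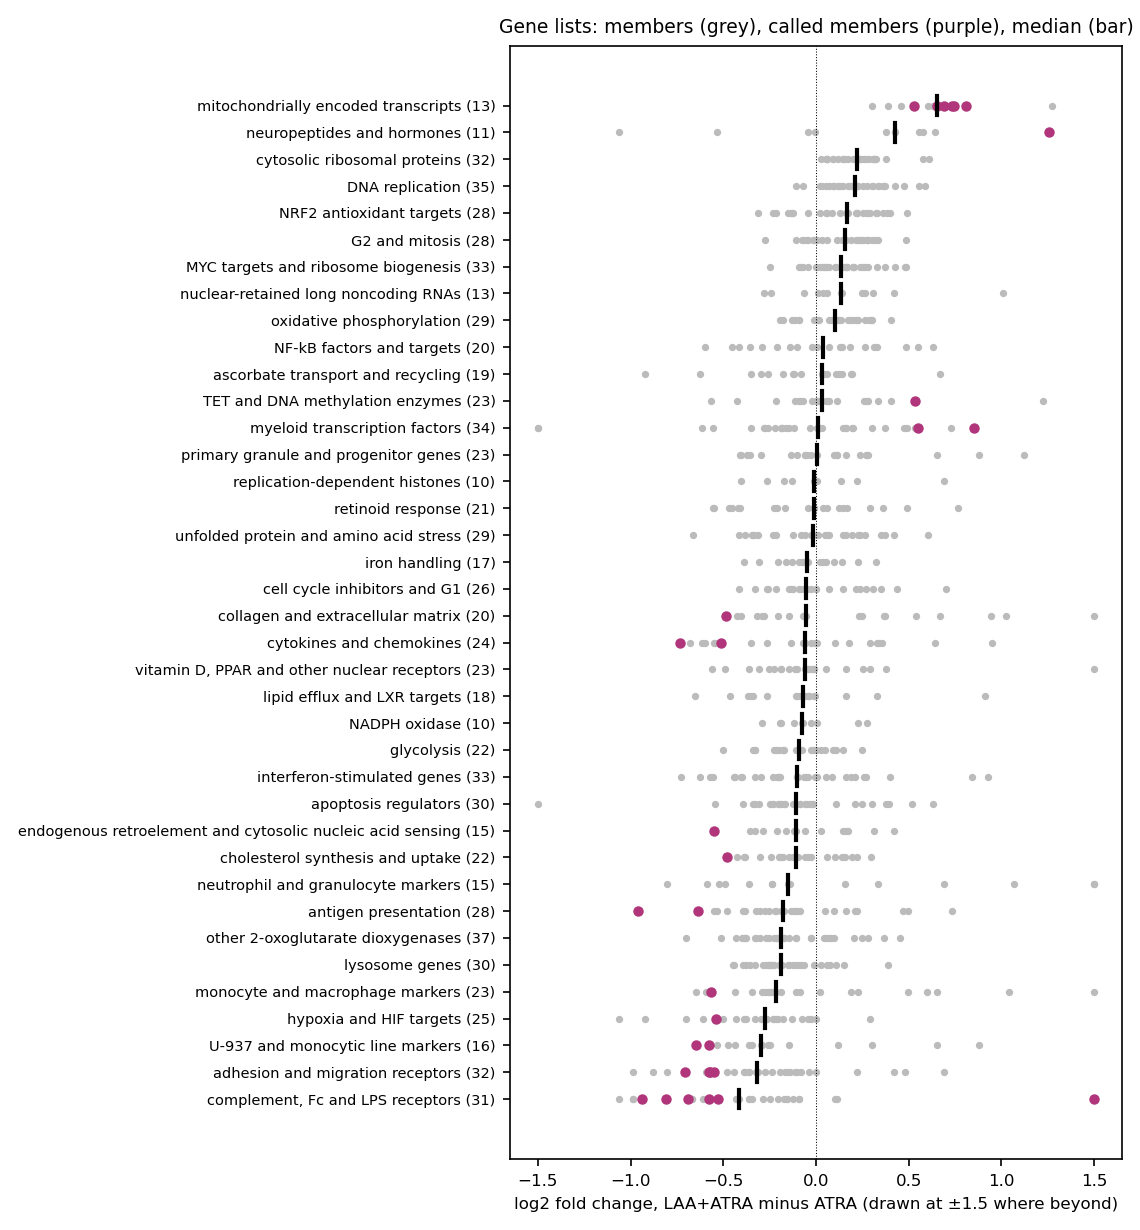
Log2 fold change of LAA+ATRA against ATRA (horizontal axis, drawn at 1.5 or -1.5 where beyond) for the tested members of each gene list with at least 5 tested members (vertical axis, number tested in brackets; markers of other cell types are left out), with called members in purple and the list median as a bar. Among the lists drawn, that of mitochondrially encoded transcripts has the highest median (0.65) and that of complement, Fc and LPS receptors the lowest (-0.42).

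Among 34 myeloid transcription factors tested, 2 were called, both higher, beside 0.493% of all genes called higher. The list's median was 0.01, or between -0.064 and 0.018 over the alternatives. CEBPB, which encodes C/EBP beta, a factor of monocyte and macrophage differentiation, was at 462 and 388 CPM with ATRA and 633 and 614 CPM with LAA+ATRA (0.55 ± 0.1, adjusted p = 0.0402). It was at 107 and 110 CPM in vehicle and 136 and 143 CPM with LAA alone, so the LAA+ATRA libraries were the highest of the 8. With offsets for transcript length and GC content the estimate for CEBPB was 0.35. BATF3, an AP-1 family factor needed for a class of dendritic cells, was at 4.98 and 4.83 CPM with ATRA and 8.28 and 9.4 CPM with LAA+ATRA (0.85 ± 0.16, adjusted p = 0.0388), below the 13.6 and 13.9 CPM of vehicle. HIF1A, the oxygen-regulated factor whose protein is marked for destruction by ascorbate-dependent hydroxylases, went from 66.7 and 78.9 CPM to 53.2 and 47.2 CPM (-0.54 ± 0.11, adjusted p = 0.0466). It was the 1 called gene of 25 in the hypoxia and HIF target list, of which 24 had estimates below 0 (median -0.27, and -0.19 with LAA alone). Leaving out LAA+ATRA replicate 1 gave a median of -0.49, and leaving out its replicate 2 gave -0.12. Beside this list, 7414 of all 14995 genes tested had estimates below 0 and 0.52% were called lower.

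None of the 3 TET genes was called. TET2 was at 9.68 and 8.97 CPM with ATRA and 8.78 and 9.96 CPM with LAA+ATRA, with overlapping groups (0.01 ± 0.2, adjusted p = 0.991). TET3 was at 62.8 and 50.1 CPM and at 52 and 52.1 CPM (-0.12 ± 0.13, adjusted p = 0.691). TET1 was low, at 2.1 and 0.777 CPM with ATRA and 0.839 and 1.06 CPM with LAA+ATRA (-0.56 ± 0.46, adjusted p = 0.561). TET transcript levels do not report TET enzyme activity, which was not measured in these libraries. Of 23 genes of TET and DNA methylation enzymes and their readers 1 was called, beside 1.01% of all genes tested. This was MBD3, a subunit of the NuRD chromatin complex. It was at 209 and 212 CPM with ATRA and 314 and 295 CPM with LAA+ATRA, the highest of all groups (0.53 ± 0.096, adjusted p = 0.0337), with 168 and 176 CPM in vehicle and 208 and 230 CPM with LAA alone. With offsets for transcript length and GC content the estimate for MBD3 was 0.25 and was not called (adjusted p = 0.143).

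The list of retinoid response genes held no gene called by edgeR. Called genes outside it included CR1 and TAPBPL, lower, and LBP and CEBPB, higher, each of which was higher with ATRA than in vehicle. Of 21 retinoid response genes tested, none passed edgeR's test, 4 had an unadjusted p under 0.05, and the median log2 fold change was -0.01, or -0.13 without ATRA replicate 2 and 0.13 without ATRA replicate 1. DESeq2 called 2 of the 21 lower, and limma on FPKM called none. Across all 14995 genes tested, 18.55% had an unadjusted p under 0.05 in edgeR and DESeq2 called 272 lower. CD38, an ADP-ribosyl cyclase and retinoid target, was at 253 and 227 CPM with ATRA and 169 and 192 CPM with LAA+ATRA (-0.41 ± 0.11, adjusted p = 0.0808), with 1.68 and 2.13 CPM in vehicle. TGM2, which encodes transglutaminase 2 and is another retinoid target, was at 170 and 129 CPM and at 125 and 98 CPM (-0.42 ± 0.15, adjusted p = 0.17), or -0.21 without ATRA replicate 1 and -0.26 without LAA+ATRA replicate 2. The groups did not overlap for either gene, as held for 44.1% of all genes tested. The receptor genes RARA (0.04 ± 0.14, adjusted p = 0.918) and RARB (-0.47 ± 0.29, adjusted p = 0.409, or -0.27 without ATRA replicate 2) were not called. CYBB, the catalytic subunit of the phagocyte NADPH oxidase, was at 134 and 123 CPM with ATRA and 109 and 135 CPM with LAA+ATRA (-0.08 ± 0.12, adjusted p = 0.787). None of the 10 NADPH oxidase genes was called by edgeR, DESeq2 or limma, 2 had an unadjusted p under 0.05 in edgeR, and their median was -0.07, or -0.16 with length and GC offsets and -0.03 without ATRA replicate 1.

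Transcripts of the mitochondrial genome, which encode core subunits of the respiratory chain and ATP synthase, were in part called higher with LAA+ATRA. All 13 protein-coding genes had estimates above 0, with a median of 0.65, and 6 of the 13 were called by edgeR, all higher, 7 by DESeq2 and none by limma on FPKM. The other 7 in edgeR included COX1, COX2 and COX3 of complex IV (adjusted p = 0.107, 0.161 and 0.223) and ND4L, whose groups overlapped. Among all 14995 genes tested 7571 had estimates above 0. Of these 14995, edgeR called 0.493% higher and DESeq2 called 282 higher. ND6, the complex I subunit encoded on the other strand from the rest, was at 459 and 406 CPM with ATRA and 710 and 728 CPM with LAA+ATRA (0.73 ± 0.097, adjusted p = 0.0179). As the strand setting of the counting is not given, ND6 may hold reads of the opposite strand, which was not tested. ND4, another complex I subunit, was at 4462 and 3695 CPM and at 5896 and 7746 CPM (0.74 ± 0.14, adjusted p = 0.0338). CYTB, the cytochrome b subunit of complex III, had the largest of the 6 estimates (0.81 ± 0.17, adjusted p = 0.0466), with 1225 and 888 CPM in the ATRA libraries and 1529 and 2170 CPM in the LAA+ATRA libraries. Without LAA+ATRA replicate 2 the estimate for CYTB was 0.53 and was not called. ATP6, ND2 and ND3 were the other called members. The estimate for ND2 was 0.69, or 0.40 without LAA+ATRA replicate 2, and that for ND3 was 0.53, or 0.18 and not called with offsets for transcript length and GC content. With LAA alone the median of the 13 genes was -0.12. Summed over the 13 genes and scaled to the plain library total without TMM, the read count was 38080 and 33118 CPM with ATRA. It was 41552 and 57227 CPM with LAA+ATRA, and LAA+ATRA replicate 2 was the highest of the 8 libraries. Leaving out LAA+ATRA replicate 1 gave a list median of 0.92, and leaving out its replicate 2 gave 0.40. The share of mitochondrial RNA as a sign of RNA quality was not tested. Nuclear pseudogenes on chromosome 1 share sequence with ND2 (MTND2P28) and ATP6 (MTATP6P1) and were called with them, and with their counts summed to the mitochondrial gene the log2 fold changes were 0.69 and 0.68 (adjusted p = 0.0485 for both).

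Further lists had no gene called by edgeR or, on FPKM, by limma. Their counts stand beside those of all 14995 genes tested, of which 7571 had estimates above 0 and 7414 below 0. An unadjusted p under 0.05 was reached by 18.55% of all genes tested, and DESeq2 called 282 of them higher and 272 lower. Among 32 cytosolic ribosomal proteins, all estimates were above 0, with a median of 0.22, and RPLP1, a ribosomal stalk protein, had 0.31 ± 0.11 (adjusted p = 0.154), or 0.20 without ATRA replicate 1. Leaving out LAA+ATRA replicate 1 gave a median of 0.05, and leaving out its replicate 2 gave 0.36. Among 35 DNA replication genes 33 estimates were above 0 (median 0.21), with PCNA, the polymerase clamp, at 0.31 ± 0.099 (adjusted p = 0.132). Of 33 MYC targets and ribosome biogenesis genes 28 had estimates above 0 (median 0.14). The last median was 0.086 without ATRA replicate 1 and 0.22 without ATRA replicate 2. An unadjusted p under 0.05 was reached by 12, 13 and 8 members of these 3 lists, and DESeq2 called 4, 6 and 3 higher. Of 30 lysosome genes 24 had estimates below 0 (median -0.19), with CTSD, the protease cathepsin D, at -0.23 ± 0.096 (adjusted p = 0.223), while 14 had an unadjusted p under 0.05 and DESeq2 called 5 lower. The estimate for CTSD was -0.39 with length and GC offsets and -0.15 on FPKM. None of the 37 other 2-oxoglutarate dioxygenases (median -0.19), the 19 genes of ascorbate transport and recycling (median 0.03) or the 28 NRF2 antioxidant targets (median 0.17) was called by edgeR or limma. Those with an unadjusted p under 0.05 numbered 10, 3 and 10, and DESeq2 called 1 dioxygenase gene lower and 1 NRF2 target in each direction. Without ATRA replicate 1 the dioxygenase median was -0.09, and without LAA+ATRA replicate 1 the ascorbate and NRF2 medians were -0.08 and 0.096. JMJD1C, a JmjC-family gene outside the dioxygenase list and chosen with its values known, was called lower (-0.60 ± 0.12, adjusted p = 0.0433). SLC23A2, which imports ascorbate into cells, was at 59.1 and 54.6 CPM with ATRA and 50.6 and 53.9 CPM with LAA+ATRA (-0.12 ± 0.099, adjusted p = 0.562), and the estimate was -0.063 without ATRA replicate 1.

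Checked against the label of a pro-monocytic line, all 16 U-937 and monocytic markers had counts. Summed CPM in this paragraph use the plain library total, without TMM scaling. For these 16 markers they were 5029 and 4637 with ATRA and 4037 and 4099 with LAA+ATRA. Of these 16, PTPRC and ITGB2 were called lower and 12 estimates were below 0 (median -0.29). In the whole set of 14995 genes, 0.52% were called lower and 7414 estimates were below 0. Markers of T and NK cells, at 312 and 356 CPM with ATRA and 339 and 339 CPM with LAA+ATRA, overlapped between the groups, and 7 of the 17, CD3D, CD3E, CD8A and PRF1 among them, had no count in any library. Markers of B and plasma cells summed to 28.6 and 25.5 CPM and to 26.7 and 27.6 CPM, with 3 of 12 (MS4A1, IGHM and IGKC) at 0. Erythroid and megakaryocyte markers, of which 7 of 15, HBB and PF4 among them, were at 0, summed to 20.7 and 18.8 CPM and to 20.8 and 24 CPM. Mast, eosinophil and dendritic cell markers, with 5 of 16 at 0, CLC and FCER1A among them, summed to 98 and 88.2 CPM and to 126 and 99.8 CPM. Epithelial, stromal and endothelial markers, with 6 of 14 at 0, KRT19, DCN and CDH5 among them, summed to 109 and 101 CPM and to 88 and 99.3 CPM. Nearly all of this last sum was PECAM1. In the same way NKG7 made up most of the T and NK sum, and TPSAB1 most of the mast, eosinophil and dendritic sum. No tested member of these 5 lists was called by edgeR, DESeq2 or limma. An unadjusted p under 0.05 in edgeR was reached by 2 members and by 18.55% of all genes tested. The libraries compared held 18536288 and 24166618 counts with ATRA and 19294443 and 20748869 with LAA+ATRA, and all 8 ranged from 18462432 to 24166618. The median absolute log2 difference between the replicates was 0.21 with ATRA, 0.20 with LAA+ATRA, 0.13 in vehicle and 0.14 with LAA alone.

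Several of the largest rises fell on genes whose reads can be shared with another gene. EIF3CL, a near-identical copy of the translation initiation factor gene EIF3C, had no count in either ATRA library and 30.7 and 37.9 CPM with LAA+ATRA, at least 474-fold above a floor of 3 counts over the group (adjusted p = 0.000233). It was at 22.5 and 34.3 CPM in vehicle, and with the counts of EIF3C and EIF3CL summed the log2 fold change was 0.02 ± 0.11 (adjusted p = 0.943). FAM156B went from 4.92 and 1.08 CPM to 14.3 and 16.6 CPM (2.43 ± 0.39, adjusted p = 0.0245), and summed with its copy FAM156A the change was 0.28 (adjusted p = 0.238). The estimate for FAM156B alone was 3.84 without ATRA replicate 1. GTF2I, a general transcription factor gene with pseudogene copies, was called lower (-0.88 ± 0.17, adjusted p = 0.0411), and with GTF2IP1 and GTF2IP4 added the change was -0.36 (adjusted p = 0.0811), and without ATRA replicate 1 GTF2I alone had -0.56. GDF1 overlaps CERS1, and the sum of both was not called (0.53, adjusted p = 0.122), while GDF1 alone was (0.97 ± 0.19, adjusted p = 0.0447, with an estimate of 0.62 under length and GC offsets). LOC105369760 was at 7.47 and 6.17 CPM with ATRA and 53.6 and 345 CPM with LAA+ATRA, so replicate 2 carried most of its rise, which was 4.88 ± 0.91 (adjusted p = 0.0398) and 2.98 without that library. The strand setting of the counting is not given in the sources used here, so values of this gene and of the antisense gene ATP2A1-AS1 (1.01 ± 0.21, adjusted p = 0.0466) may hold reads of their neighbours. The symbol TUT1, that of a terminal uridylyltransferase, stood for 2 overlapping gene models on the minus strand of chromosome 11. The model from 62559603 to 62591531 went from 3.21 and 3.37 CPM to 8.39 and 7.14 CPM (1.24 ± 0.21, adjusted p = 0.0333). The other, from 62575045 to 62592177, was not called (0.19 ± 0.14, adjusted p = 0.531). A rise with no named copy was that of NRGN, neurogranin, from 50.9 and 44.1 CPM to 78.9 and 76.9 CPM (0.71 ± 0.11, adjusted p = 0.0194).

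The genes called with ATRA were set beside the effect of LAA without ATRA, which was measured on 4 other libraries. Of the 74 genes called higher, 65 also had an estimate above 0 for LAA against vehicle, and of the 78 called lower, 74 had an estimate below 0. Together 139 of 152 (91.4%) had the same sign, against 68.5% of all 14995 genes tested. Across the 152 genes Pearson's r was 0.48 and Spearman's rho 0.64, and across all genes 0.18 and 0.39. These describe genes, which are not independent replicates. The median log2 fold change without ATRA was 0.38 for the higher genes and -0.34 for the lower genes. The medians with ATRA, 0.66 and -0.63, come from the comparison that chose these genes, so the sizes are not compared. CR1 had a log2 fold change of -0.67 ± 0.15 with LAA alone (adjusted p = 0.0586), MBD3 one of 0.35 ± 0.096 (adjusted p = 0.0915) and CEBPB one of 0.36 ± 0.11 (adjusted p = 0.108). TAPBPL (-0.03 ± 0.17) and ND6 (-0.0027 ± 0.097) had estimates near 0 without ATRA, where TAPBPL stood at a level near 4 CPM.

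The difference between the effect of LAA with ATRA and without it was tested for each gene as an interaction. EIF3CL was the 1 gene called (0.00667% of 14995), and none was called once copies were summed. An unadjusted p under 0.05 was reached by 747 genes (4.98%), and DESeq2 called 13. For LBP the difference was 0.90 (adjusted p = 0.998), for GAL 1.15 (adjusted p = 0.383), for CR1 -0.27 (adjusted p = 0.986), for TAPBPL -0.93 (adjusted p = 0.662) and for ND6 0.74 (adjusted p = 0.383). An effect of LAA that depends on ATRA was thus not detected for these 5 genes at this number of libraries, which does not show that the effects were equal. The number called was 15 without ATRA replicate 1 and 4 without ATRA replicate 2.

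**Figure D4:**
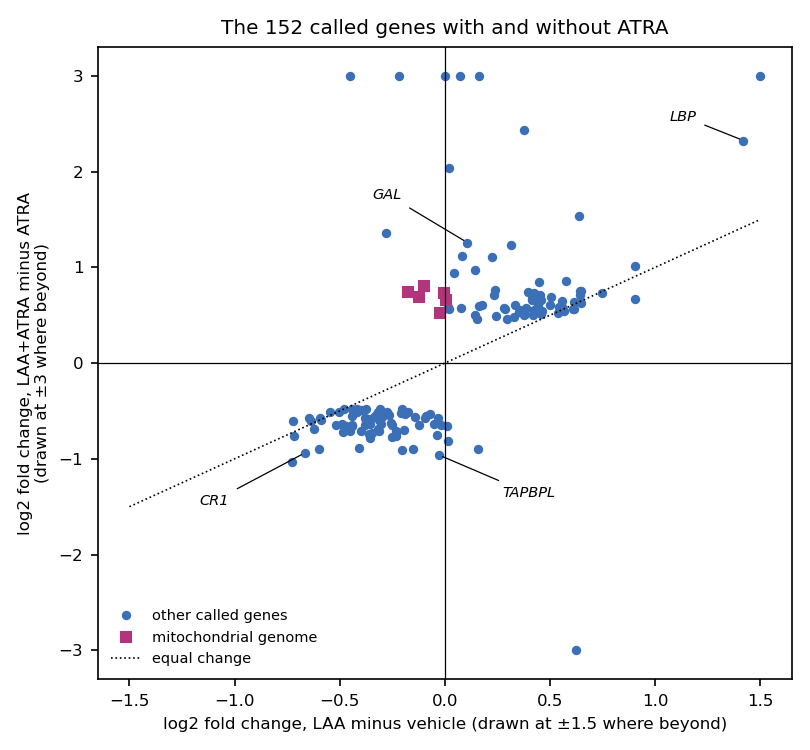
Log2 fold change of LAA+ATRA against ATRA (vertical axis, drawn at 3 or -3 where beyond) against that of LAA against vehicle (horizontal axis, drawn at 1.5 or -1.5 where beyond) for the 152 called genes, with transcripts of the mitochondrial genome as squares and a dotted line of equal change. Of the 152 genes 139 lie in the quadrants of equal sign, while mitochondrial transcripts lie near 0 on the horizontal axis.

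Called genes differed in transcript length and base composition. The median transcript length in GENCODE 29 was 934.5 bases for the genes called higher, 1296.5 bases for those called lower and 1019.5 bases for all genes tested. The median GC content was 60.6%, 46.1% and 50.4% in that order. When genes were cut by length into 10 groups of nearly equal size, in the group of longest genes, with lengths of 3159 bases or more, 16 were called lower and none higher, and the median log2 fold change of that group was -0.11. It was -0.15 for LAA against vehicle, so the tilt was also present in the libraries without ATRA. With per-library offsets for length and GC content 120 genes were called higher and 294 lower, so that 29% of calls were higher in place of 48.7%. Of the 152 genes 151 kept their direction and 117 were called, 43 of the 74 higher genes and 74 of the 78 lower genes. With the replicate block added to the offsets these were 22 and 51.

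**Figure D5:**
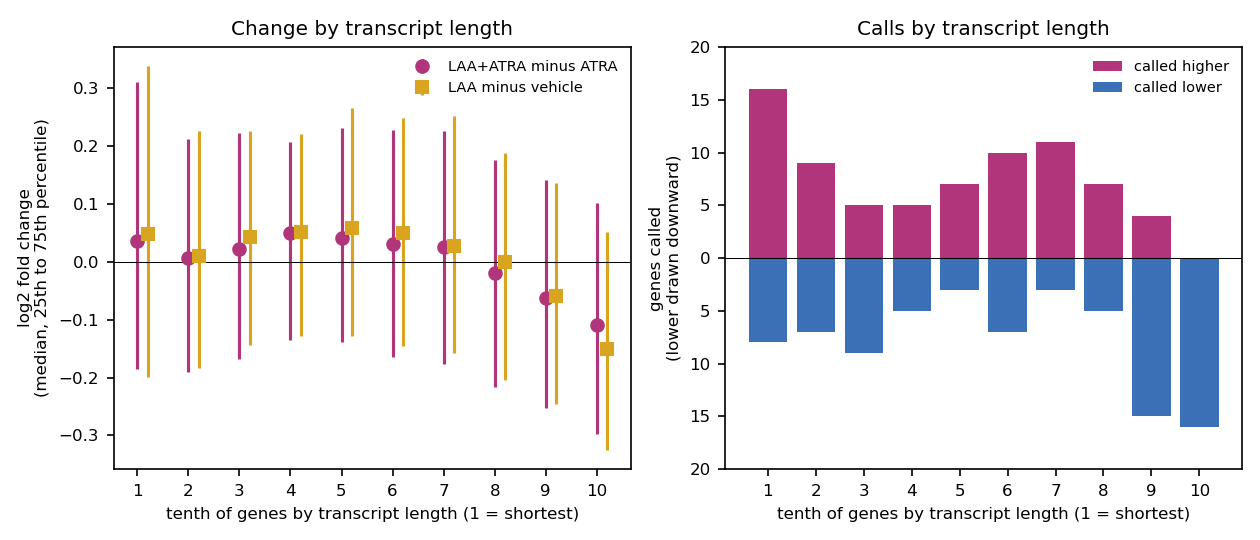
Left, median log2 fold change with the range from the 25th to the 75th percentile (vertical axis) for 10 groups of genes ordered by transcript length (horizontal axis), for LAA+ATRA against ATRA and for LAA against vehicle. Right, number of genes called higher (upward) and lower (downward) in each group, where the group of longest genes holds 0 called higher and 16 called lower.

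The sets of called genes differed in CG density, and the promoters shown above were picked to display this contrast. That of CD55, called lower, held 12 CG and is not shown. The same sets differed in transcript GC content, and CG density apart from GC content was not tested. A RefSeq promoter was matched for 47 of 68 genes called higher with a unique symbol, for 63 of 75 called lower and for 10358 of 13202 tested. In the 250 bases before the start, the median number of CG dinucleotides was 24 in genes called higher, 17 in genes called lower and 21 in all genes tested. At least 10 CG were held by 93.6%, 61.9% and 83.9% of promoters in that order. Over all genes tested there was little trend, since the median log2 fold change over 5 groups of genes ordered by CG count ran from -0.03 in the group with the fewest CG to 0.0041 in the next group, with the other 3 between. The nuclear receptor half-site AGGTCA, searched on both strands of the same 250 bases, stood in 12.8% of promoters of genes called higher, 3.17% of those called lower and 8.53% of all. The CR1 promoter shown holds AGGTCA on the minus strand from 67 to 62 bases before the start. The TLR4 promoter holds the PU.1-type motif GAGGAAGT on the minus strand from 173 to 166 and from 101 to 94 bases before the start, and 2.35% of all promoters held this motif. A match is a description of the letters in this window and shows no binding.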

How the data were processed

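RNA-seq of 8 U-937 libraries was analysed from 2 tables. The authors deposited estimated counts per Ensembl gene, which hold decimals, and FPKM values per gene. Salmon 1.8.0, DESeq2 1.36.0, GRCh38 and hg38 are named in the submitters' processing notes. No source used here gives the annotation release, the strand setting or the scaling behind the FPKM. Symbols came from the deposited table, and positions, transcript length and GC content from GENCODE 29 on GRCh38, which may differ from the authors' annotation. Promoters came from RefSeq (GRCh38.p14).

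Estimated counts were rounded, which changed 16.5% of values. Genes were filtered with filterByExpr and scaled by TMM, and edgeR 4.0.16 fitted a quasi-likelihood model of 4 group means, with all 8 libraries, under R 4.3.3 (4 residual and 8.2 prior degrees of freedom). The F test of LAA+ATRA against ATRA was two-sided, with Benjamini-Hochberg adjustment over all 14995 genes. CPM are counts scaled to TMM-adjusted library totals, except sums over a list, which use plain library totals. SE is the absolute log2 fold change divided by the square root of F. The steps were tested on simulated data. Counting intervals and floors cover counting error only.

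Named genes were the 12 largest rises and falls with a mean of at least 5 CPM and groups that do not overlap, the 6 of smallest adjusted p and the 6 most abundant in each direction, up to 4 called members of each list (or its 2 most abundant members), and 14 genes of the study's question. The text names part of these. Members and lists were chosen with earlier results of these data known. Alternatives were DESeq2 1.42.0, RLE size factors, no low-count filter, a replicate block, offsets for length and GC content with and without the block, only the 4 libraries compared, limma 3.58.1 on log2 FPKM with a pseudocount of 1 or of 0.1 (genes reaching a group mean of 1 FPKM), and each library left out. Summing the counts of gene copies was added after the data were seen.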

Additional observations from a re-analysis of the deposited data

Results flagged for a closer look

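For EIF3CL the effect of LAA differed between cells with and without ATRA, by 12.6 on the log2 scale in the edgeR interaction test (adjusted p = 0.00106). It had no count in the 2 ATRA libraries and 30.7 and 37.9 CPM with LAA+ATRA, beside 22.5 and 34.3 CPM in vehicle and 33.3 and 15.4 CPM with LAA alone. The fitted value depends on the prior count used for groups without counts. With the counts of EIF3C added, the difference was 0.07 (adjusted p = 1).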

How the results depend on the processing

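The counts of genes higher and lower with LAA+ATRA, 74 and 78, were close to the RLE counts of 74 and 82. They were 471 and 432 without a low-count filter, 282 and 272 with DESeq2, 120 and 294 with offsets for length and GC content, 31 and 87 with those offsets and the replicate block, and 10 and 5 in a fit to only the 4 libraries compared. On FPKM, limma called 5 and 1 with a pseudocount of 1 and 4 and 0 with 0.1, where 2430 genes had an unadjusted p under 0.05. Leaving out 1 library gave 3 to 100 genes higher, 3 to 99 lower and 1 to 15 in the interaction. The interaction count of 1 was 136 without the filter, 13 with DESeq2 and 0 with copies summed. Replicate numbers carry no stated meaning, and the differences between replicates 1 and 2 correlated across genes by -0.073 to 0.077 between groups, so the samples were not paired. With the replicate block 16 genes were higher and 14 lower, and 29 of the 152 remained called. Apart from 1 gene under the length and GC offsets, called genes present in an alternative kept their direction in each. For fits without 1 library the lack of overlap between the groups made this nearly certain. Estimates near 0 changed sign for RARA (-0.096 with length and GC offsets with or without the replicate block, -0.081 and -0.084 on FPKM with pseudocounts of 1 and 0.1) and CYBB (0.021 with offsets, 0.016 with offsets and replicate block). Leaving out 1 library gave -0.13 to 0.23 for RARA, -0.24 to 0.062 for CYBB, -1.14 to 0.29 for TET1, -0.086 to 0.093 for TET2 and -0.27 to 0.055 for TET3. The cause of these changes was not tested, although each fit without a library rests on fewer samples. With 2 libraries per group, the smallest absolute log2 fold change called was 0.46, beside a median of 0.64, and smaller changes were not called. Size alone did not set nearness to the threshold. In the edgeR test POLD2, at 0.60, had an adjusted p of 0.0194, and CYTB, at 0.81, had 0.0466.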

Other observations

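Families described here were chosen after their values were seen. Nuclear genes of mitochondrial translation and of complex I leaned upwards with LAA+ATRA. As a background, 7571 of all 14995 genes tested had estimates above 0 and 0.493% were called higher. Of 77 mitochondrial ribosomal protein genes tested, 72 had estimates above 0 (median 0.22) and 3 were called, all higher: MRPL41, from 51.5 and 50.2 CPM with ATRA to 92 and 70 CPM with LAA+ATRA (0.67 ± 0.13, adjusted p = 0.0433), MRPL55 (0.54 ± 0.11) and MRPL37 (0.50 ± 0.095). With offsets for transcript length and GC content the estimates for MRPL41, ATP5ME and NDUFAF8, described here, were 0.20, 0.29 and 0.47, and none of the 3 was called. Of 48 complex I subunit and assembly genes 41 had estimates above 0 (median 0.29), and NDUFS6 (0.76 ± 0.15, adjusted p = 0.0433) and NDUFAF8 (0.73 ± 0.15, adjusted p = 0.0466) were called higher. ATP5ME, a small subunit of ATP synthase (0.71 ± 0.13, adjusted p = 0.0337), and SLIRP, which binds mitochondrial messenger RNA (0.63 ± 0.11, adjusted p = 0.0337), were called higher as well. In contrast to the mitochondrial genome's own transcripts, the medians of both families were also above 0 with LAA alone, at 0.28 and 0.32. Their median transcript lengths, 864 and 658.5 bases, are short beside 1019.5 bases for all genes, and the offsets for length were not applied to the family medians.

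Other called genes outside the naming rule were also singled out after their values were seen. PAM, a copper enzyme that uses ascorbate to amidate peptide hormones, was at 31 and 30 CPM with ATRA and 18.6 and 19.2 CPM with LAA+ATRA (-0.69 ± 0.13, adjusted p = 0.0353), and its log2 fold change with LAA alone was -0.62. On log2(FPKM + 1) the estimates for PAM and, among the genes above, SLIRP were -0.42 and 0.42. JMJD1C, a JmjC-domain protein of the histone demethylase family, was at 30.5 and 30.7 CPM and at 18.8 and 21.4 CPM (-0.60 ± 0.12, adjusted p = 0.0433), with -0.64 for LAA alone. TXNIP, the thioredoxin-binding regulator of glucose uptake, went from 228 and 233 CPM to 163 and 129 CPM (-0.66 ± 0.11, adjusted p = 0.0333), and TGFBR2, a TGF-beta receptor chain, from 48.5 and 51.9 CPM to 30.1 and 31.1 CPM (-0.71 ± 0.13, adjusted p = 0.0337). HSPB1, a small heat shock protein gene, rose from 325 and 291 CPM to 533 and 476 CPM (0.71 ± 0.1, adjusted p = 0.0194), and POLD2, a subunit of DNA polymerase delta, from 134 and 132 CPM to 203 and 200 CPM (0.60 ± 0.09, adjusted p = 0.0194). The groups did not overlap for any of these genes, as held for all called genes and for 44.1% of all genes tested.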
